A study of Homo sapiens with 12 samples.

Results

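The 172 genes described here carry the names SNORA and SCARNA. They were chosen by symbol alone, as all genes of GENCODE release 29 whose symbol starts with either name, from the 58735 genes in the count tables. SNORA names 147 of them, and these are box H/ACA small nucleolar RNAs. SCARNA names the other 25, the small Cajal body RNAs. GENCODE types 151 as snoRNA, 20 as scaRNA and 1, SCARNA9, as antisense. Their median length is 134 bases, with a range of 68 to 701. A pair of genes shares its symbol in each of 6 cases, SCARNA4 among them, and 34 of the 172 are at least 95% identical in sequence to another member.

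The cells were HEK293T, an established line from human embryonic kidney that makes the large T antigen of SV40 and is easily transfected. There were 4 groups of 3 libraries each, and all cells were transfected and their total RNA taken after 24 h. For the first group this was 500 ng of plasmid encoding miR-211, carried by a Lipofectamine lipid reagent, and its control, called plasmid control here, received the same amount of a control plasmid. The other pair received 1 nM of U1 siRNA, a Dicer-substrate duplex that targets the U1 RNA of the spliceosome, or a scrambled oligo, and the titles of these 6 libraries also carry the letters WT, which those of the plasmid libraries lack. Per the labels not every cell took up plasmid, as judged by GFP, and U1 RNA was lowered only in part. Nothing in the labels says whether replicates are separate cultures, so each p-value is set against a spread that may be no more than technical.

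Box H/ACA RNAs fold as a pair of hairpins joined by a hinge, the H box, and end in a short tail with the letters ACA. They bind dyskerin (DKC1), NOP10, NHP2 and GAR1, and the particle turns chosen uridines of another RNA into pseudouridine. SNORA particles work in the nucleolus on ribosomal RNA. The Cajal body RNAs work on the small nuclear RNAs of the spliceosome, and some of them are box C/D RNAs or composites of both kinds. In vertebrates nearly all of these RNAs are cut out of introns of host genes after splicing, many of the hosts being ribosomal protein genes or noncoding SNHG genes, the snoRNA host genes.

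The sequences below are the members on which the results turn, read 5 prime to 3 prime from the GENCODE 29 transcripts on GRCh38. SNORA12 (chr10:100237156-100237302, minus strand, in an intron of CWF19L1) and SNORA58 (chr3:131479097-131479233, minus, in MRPL3) had the highest levels. SCARNA22 (chr4:1974636-1974760, plus, in NSD2) and SNORA11F (chr10:73126080-73126207, minus, with no gene on its strand around it) had the smallest unadjusted p-values between U1 siRNA and scrambled oligo. SNORA66 (chr1:92840719-92840851, plus, in RPL5) had the lowest log2 fold change among the members tested with miR-211, and SCARNA23 (chrX:24744441-24744570, plus, in POLA1) was the Cajal body RNA next in level to SCARNA22. The first run of capitals is the match to ANANNA closest to the middle, the letters of the H box, and the second is the ACA followed by NNN at the end.
SNORA12: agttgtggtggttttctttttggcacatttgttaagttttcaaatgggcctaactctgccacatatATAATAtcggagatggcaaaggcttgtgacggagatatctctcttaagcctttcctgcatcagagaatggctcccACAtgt
SNORA58: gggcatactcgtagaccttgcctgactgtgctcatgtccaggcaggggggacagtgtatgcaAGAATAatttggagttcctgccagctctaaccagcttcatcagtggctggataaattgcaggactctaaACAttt
SNORA11F: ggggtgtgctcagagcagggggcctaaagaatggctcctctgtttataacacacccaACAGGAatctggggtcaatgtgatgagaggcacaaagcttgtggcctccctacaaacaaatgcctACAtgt
SNORA66: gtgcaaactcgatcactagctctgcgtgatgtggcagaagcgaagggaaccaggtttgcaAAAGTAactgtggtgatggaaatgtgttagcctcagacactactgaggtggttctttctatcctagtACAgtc
SCARNA22: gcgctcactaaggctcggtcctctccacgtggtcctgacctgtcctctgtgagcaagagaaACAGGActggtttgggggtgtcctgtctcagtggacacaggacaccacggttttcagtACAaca
SCARNA23: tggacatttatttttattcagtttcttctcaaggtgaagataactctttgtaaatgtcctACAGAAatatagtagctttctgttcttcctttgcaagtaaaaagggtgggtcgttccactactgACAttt

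Both letters were present in most members. A match to ANANNA within 15 bases of the middle together with ACANNN as the last 6 letters was held by 117 of the 172 genes (68.02%). Among SNORA genes of 120 to 150 bases it was 98 of 132 (74.24%), and among SCARNA genes of that length 11 of 15 (73.33%). Of 259 other short RNA genes of the same length (GENCODE types snRNA, miRNA and misc_RNA), 0 held both, 115 (44.4%) held the hinge letters alone and 4 (1.54%) the tail alone. Only the annotated strand was searched, and the motifs do not overlap. The letters TGAG, which bind the Cajal body protein WRAP53 when they stand in a hairpin loop, occurred anywhere in 18 of 25 SCARNA genes (72.0%), in 63 of 147 SNORA genes (42.86%) and in 67.57% of the 259 other genes.

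SNORA71A, SNORA71C and SNORA71D lack the tail by this search because their annotation ends at the ACA itself, as the following pair from introns of SNHG17 shows (SNORA71D, chr20:38433865-38433998; SNORA71C, chr20:38429670-38429803; both minus strand). SNORA74D (chr5:139276180-139276320, plus strand, within MATR3 and SNHG4) has no such tail. Capitals mark only the match to ANANNA closest to the middle. In SNORA71D it starts at base 58 and in SNORA71C at base 71. The letters agagga of SNORA71C, where SNORA71D has its capitals, also match, so the capitals of SNORA71C need not mark its H box.
SNORA71D: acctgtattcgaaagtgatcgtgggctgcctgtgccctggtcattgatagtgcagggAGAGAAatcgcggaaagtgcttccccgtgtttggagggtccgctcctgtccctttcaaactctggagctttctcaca
SNORA71C: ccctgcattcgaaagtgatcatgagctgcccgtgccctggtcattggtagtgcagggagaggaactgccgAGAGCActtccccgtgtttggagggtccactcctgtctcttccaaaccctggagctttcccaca
SNORA74D: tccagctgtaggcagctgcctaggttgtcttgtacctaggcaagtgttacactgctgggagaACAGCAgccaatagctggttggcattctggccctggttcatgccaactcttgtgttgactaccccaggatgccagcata
Identity within the SNORA71 genes A to D ran from 84.33% (A with B, C and D) to 90.3% (B with D). SNORA73A and SNORA73B are 94.12% identical, SNORA58 and SNORA58B 87.5%, and SNORA11F and SNORA11E 93.75%. Reads of the near-identical members could be lost as mapping to several places, so their counts are less certain than those of SNORA12 or SCARNA22, whose closest members share 66.7% and 65.6% of their letters.

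Each library held 4515728 to 9290686 counts over all genes. Only 5402 counts over all 12 libraries belonged to the 172 genes, so most members stand near the limit of detection. At least 1 count was found for 105 of them, at least 10 for 77 and at least 100 for 15, and 44 were counted in every library. Single libraries showed 68 to 84 members. The U1 siRNA library 2 stands apart from the other 11: 44.5% of uniquely mapped pairs fell outside annotated exons there, against 14.5% to 25.5% elsewhere. MIR211 had 1646 to 1997 counts in the miR-211 libraries and 1 to 9 in the other 9, while the 15 annotated U1 genes summed to 16.6 ± 2.51 CPM (SD, n = 3) with U1 siRNA and 18.4 ± 1.65 CPM with scrambled oligo, which overlapped. CPM is counts per 1000000 gene counts of that library. Of the markers of HEK293T, LIN28B (59.1 CPM), VIM (52.9 CPM) and NEFM (20.8 CPM) were well counted. KRT18 stood at 8.80 CPM, KRT8 at 3.25 CPM (12 to 35 counts per library), and PAX2 had 0 to 4 counts per library. Of 13 markers of blood, endothelial, stromal, pigment and liver cells, 7 stayed under 10 counts in each library and none exceeded 32. CD68, one of the 7, is 74.1% covered by exons of other genes, so its low count is not a clear measurement. COL1A1 (32), PECAM1 (27) and COL1A2 (25) had their highest counts in U1 siRNA library 2. KRT8 and PAX2 do not stand apart from these 13 markers.

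Which members had counts followed their overlap with exons of other genes. Of 52 members that lie wholly inside exons of another gene, 52 had 0 counts in all 12 libraries. The 19 that lie partly in such exons had a median total of 1 count, with 8 at 0. The 101 that are clear of other genes' exons had a median total of 26 counts, with 7 at 0. The same held for the box C/D genes (SNORD), of which 84 of 84 inside exons had 0 counts, and for 368 of 368 microRNA hairpin genes inside exons. A pair that overlaps exons of more than 1 gene is counted for none of them, so a 0 for such a gene is not a measurement of its RNA.

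**Figure D1:**
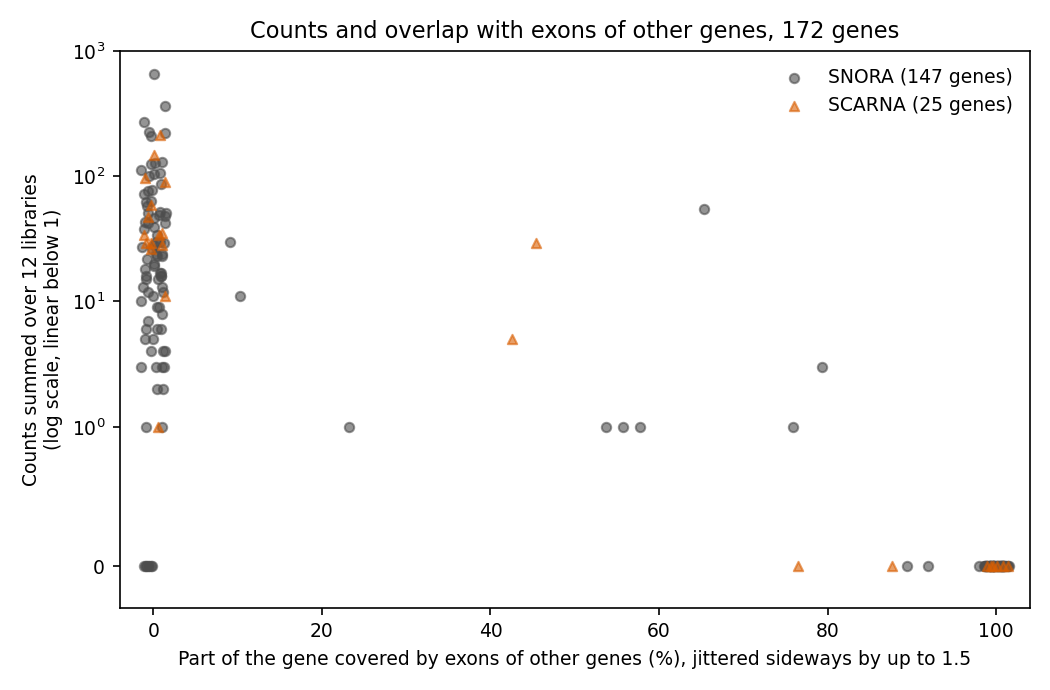
Each point is 1 of the 172 genes: the horizontal axis gives the percentage of the gene covered by exons of other genes, the vertical axis its counts summed over 12 libraries on a log scale that is linear below 1. All 52 genes at full coverage sit at 0, and the genes above 60 counts are all at no coverage.

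Well-studied RNAs are therefore without a count here. SNORA73A, one of the copies of the U17 RNA that acts in early processing of small-subunit ribosomal RNA, lies inside exons of RCC1 and SNHG3 and had 0 counts, while SNORA73B, clear of exons of the same hosts, had 208. Of 18 members in protein-coding ribosomal protein genes, 13 lie inside exons and had 0 counts, and the 4 that are clear of exons (SNORA3B, SNORA33, SNORA65 and SNORA66) had all been counted, with a median total of 87.5. Of 25 in SNHG genes, 16 lie inside exons with 0 counts, and the 8 clear ones had a median total of 115. SNORA56, inside an exon of DKC1, and SNORA36A, 88.6% covered in the same gene, had 0 counts. DKC1 itself encodes the pseudouridine synthase that these RNAs guide. Among the Cajal body RNAs SCARNA2, SCARNA15, SCARNA16 and SCARNA17 were inside exons and at 0, and SCARNA10 (75.2% covered) and SCARNA12 (88.5%) were also at 0.

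Exceptions ran both ways. SNORA84, in IARS, had 55 counts with 65.4% of its length covered, the most of any partly covered member. SNORA53 had 30 counts with 10.4% covered and SCARNA13 had 29 with 46.2% covered. The 7 clear members without a count were SNORA3C, SNORA20B, SNORA35, SNORA35B, SNORA41B, SNORA70I and SNORA70J. SNORA35, in an intron of the serotonin receptor gene HTR2C, and SNORA35B, in LRCH2, resemble no other member by more than 65.6%, while the other 5 are 88.3% to 94.1% identical to another member. A count of 0 in a library allows up to 3 counts of its total, so these members were not detectable at this depth, which does not show that they are absent.

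Counts were concentrated in few members. SNORA12 alone had 650 of the 5402 counts (12.03%), the first 3 genes had 23.68%, the first 10 had 47.22% and the first 20 had 65.24%. Levels per length are given as CPM per kilobase of gene. A pair counts for a gene that it overlaps by any base, so this measure favours the shorter members. SNORA12 stood at 53.3 ± 8.91 CPM per kilobase (SD over 12 libraries, range 42.7 to 67.6) and SNORA58 at 32.1 ± 3.42 (range 25.3 to 35.9). These ranges do not overlap, and SNORA12 was above SNORA58 in 12 of 12 libraries. SNORA58 was above SNORA74D (23.1 ± 4.39) in 11 of 12 libraries.

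The order below these did not hold between libraries. SNORA74D exceeded SNORA11F (20.8 ± 7.10 CPM per kilobase) in 8 of 12 libraries, SNORA11F exceeded SNORA71D (20.0 ± 6.44) in 6, and SNORA71D exceeded SCARNA22 (19.7 ± 11.2) in 8. SCARNA23 (13.7 ± 3.08), SNORA73B (12.4 ± 3.13), SNORA33 (11.8 ± 4.02), SNORA66 (11.5 ± 4.93) and SNORA26 (10.4 ± 3.92) followed, and each neighbouring pair had overlapping ranges. SNORA33 and SNORA66 lie in the ribosomal protein genes RPS12 and RPL5, and SNORA26 in the noncoding gene DANCR. Of the remaining SNORA genes that were named for their level, SNORA80E (in KHDC4) stood at 9.81, SNORA23 (in IPO7) at 6.75 and SNORA71B (in SNHG17, annotated at 272 bases) at 5.78 CPM per kilobase.

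The Cajal body RNAs below SCARNA23 had fewer counts. SCARNA1, a guide for U2 small nuclear RNA in an intron of PPP1R8, stood at 6.80 CPM per kilobase with 96 counts in all. SCARNA14, in TIPIN, stood at 5.37 with 59 counts, and SCARNA8, another U2 guide, in HAUS6, at 4.11 with 47 counts. SCARNA5, a composite box C/D and H/ACA RNA in ATG16L1, stood at 3.84 with 89 counts. SCARNA21 (in CHD3) and SCARNA7 (in KPNA4) had 34 and 35 counts. Over the clear members the median level was 1.84 CPM per kilobase for 86 SNORA genes and 2.88 for 15 SCARNA genes.

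**Figure D2:**
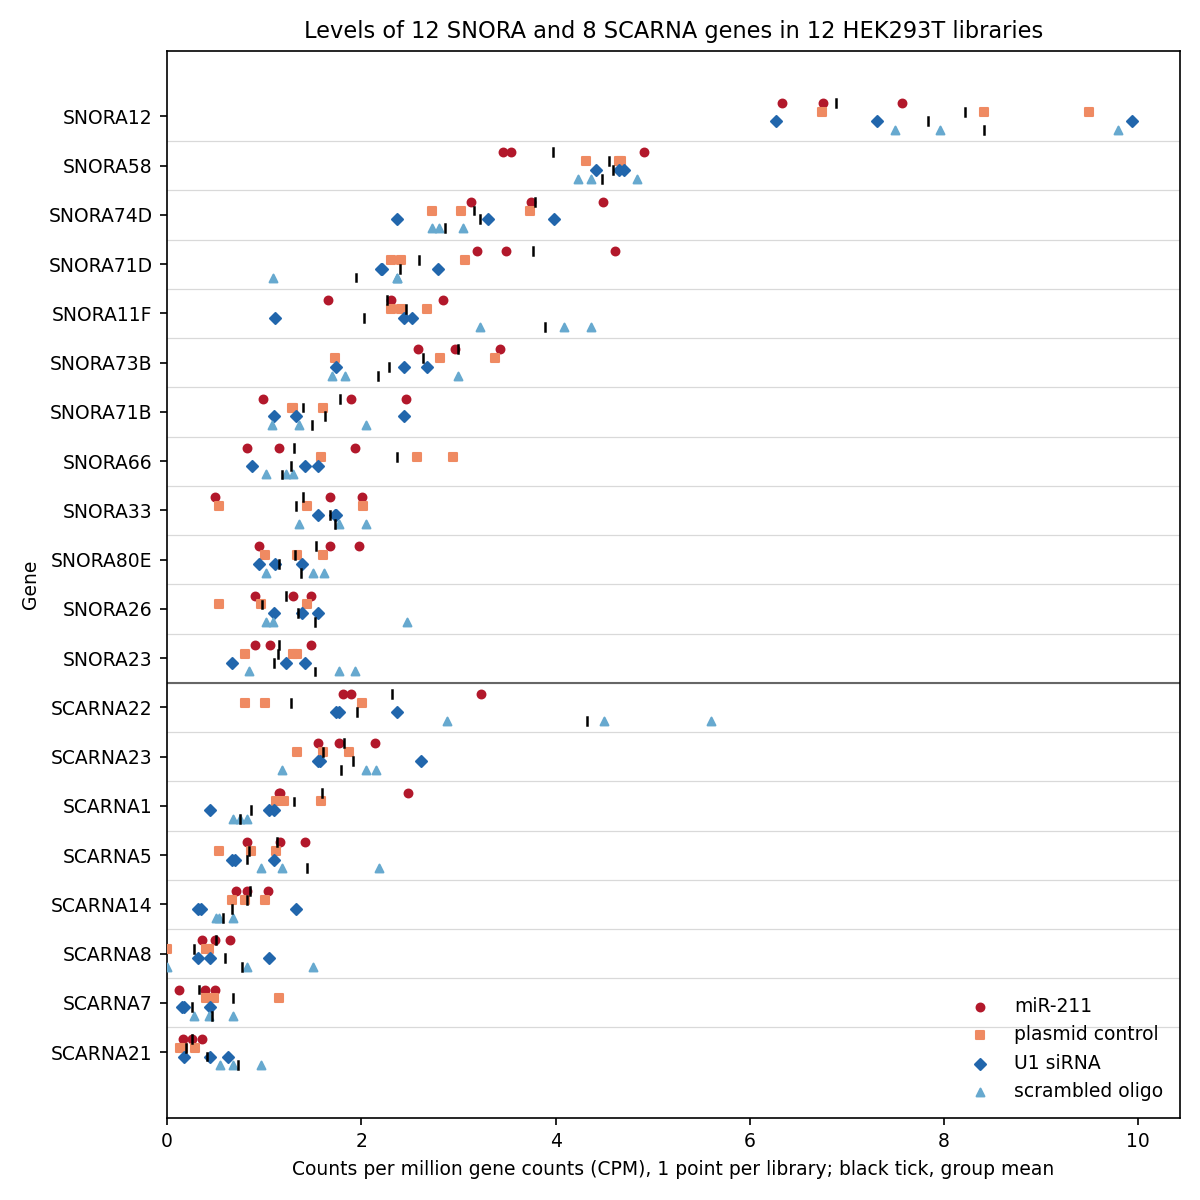
Each point is the CPM of 1 gene in 1 library for the 12 SNORA and 8 SCARNA genes with the highest mean CPM, with colour and shape for the 4 groups and a black tick for each group's mean (n = 3). The 3 scrambled oligo libraries lie above all 9 others for SNORA11F (3.22 to 4.36 CPM against at most 2.85), and group ranges overlap for most other genes.

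Set beside other intronic small RNA genes that are also clear of exons and inside a host on their strand, the 90 H/ACA and Cajal body members had a median of 2.32 CPM per kilobase. The 161 SNORD genes of this kind had a median of 0.191 and the 879 microRNA hairpin genes 0.194. At least 10 counts were found for 70 of the 90, for 37 of the 161 and for 107 of the 879. Summed levels gave another picture for SNORD: per kilobase of all 161 genes they ran from 3.69 to 4.71 CPM over the libraries, and the 90 members from 3.67 to 4.96, and a single SNORD gene had 2292 of the 4583 counts of its set. Hairpin genes without MIR211 ran from 0.645 to 1.60. SNORD genes and hairpins are shorter (medians of 82 and 80 bases), and the lengths kept in the sequenced fragments are not given in the sources used here, so these values describe what was counted, not relative abundance in the cell. The differences were not tested.

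Levels of a member and its host gene were related only loosely. Over 85 clear members with a single host, Spearman's rho between the member's and the host's CPM per kilobase was 0.471, a description across genes that share libraries. RPL5 (908.4 CPM per kilobase of exon) and RPS12 (1485) far exceeded their inner genes SNORA66 and SNORA33. NSD2, in contrast, stood at 1.93 CPM per kilobase and its SCARNA22 at 19.7, and CWF19L1 stood at 27.0 and SNORA12 at 53.3. Hosts were divided by all their annotated exon bases (19776 for NSD2 and 3985 for CWF19L1), and the measure favours short genes. These values therefore do not show that a member was more abundant than its host. Without splice information a count over an intronic member includes any unspliced host RNA, and no value here separates the forms. By host type, the 74 clear members in protein-coding hosts had a median total of 27.5 counts, the 16 in noncoding hosts 29 and the 11 with no host 3. SNORA11F, with 225 counts and no host, was the exception among those 11.

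Replicates of most well-counted members varied about as much as counting alone would give. Over the 23 members with at least 60 counts the chi-square per degree of freedom of replicates around their group share had a median of 1.03, where 1 is counting noise, with a range of 0.381 to 3.09. SNORA58 was the steadiest (0.381) and SNORA12 was at 1.53. SCARNA22 was at 1.90. The highest value belonged to SNORA59B, a gene annotated at 701 bases in SLC47A1. It had 12 counts in U1 siRNA library 2 (2.66 CPM) and 3 and 7 in libraries 1 and 3 (0.473 and 1.22 CPM).

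Summed over all members, levels were alike in most libraries. The 147 SNORA genes together reached 46.2 to 58.4 CPM in 11 libraries and 63.6 CPM in U1 siRNA library 2. The 12 best counted SNORA genes made up 29.1 to 36.2 CPM in all 12 libraries and 29.5 CPM in that library. The other 135 SNORA genes reached 17.1 to 26.9 CPM in 11 libraries and 34.1 CPM in that one. MicroRNA hairpin genes without MIR211 were also highest there (225 CPM against at most 153.4), as was the share of pairs outside exons (44.5%). The part of the reads outside exons in these sums was not tested. SCARNA genes summed to 8.86 to 15.6 CPM, and U1 siRNA library 2 was the lowest of the 12.

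**Figure D3:**
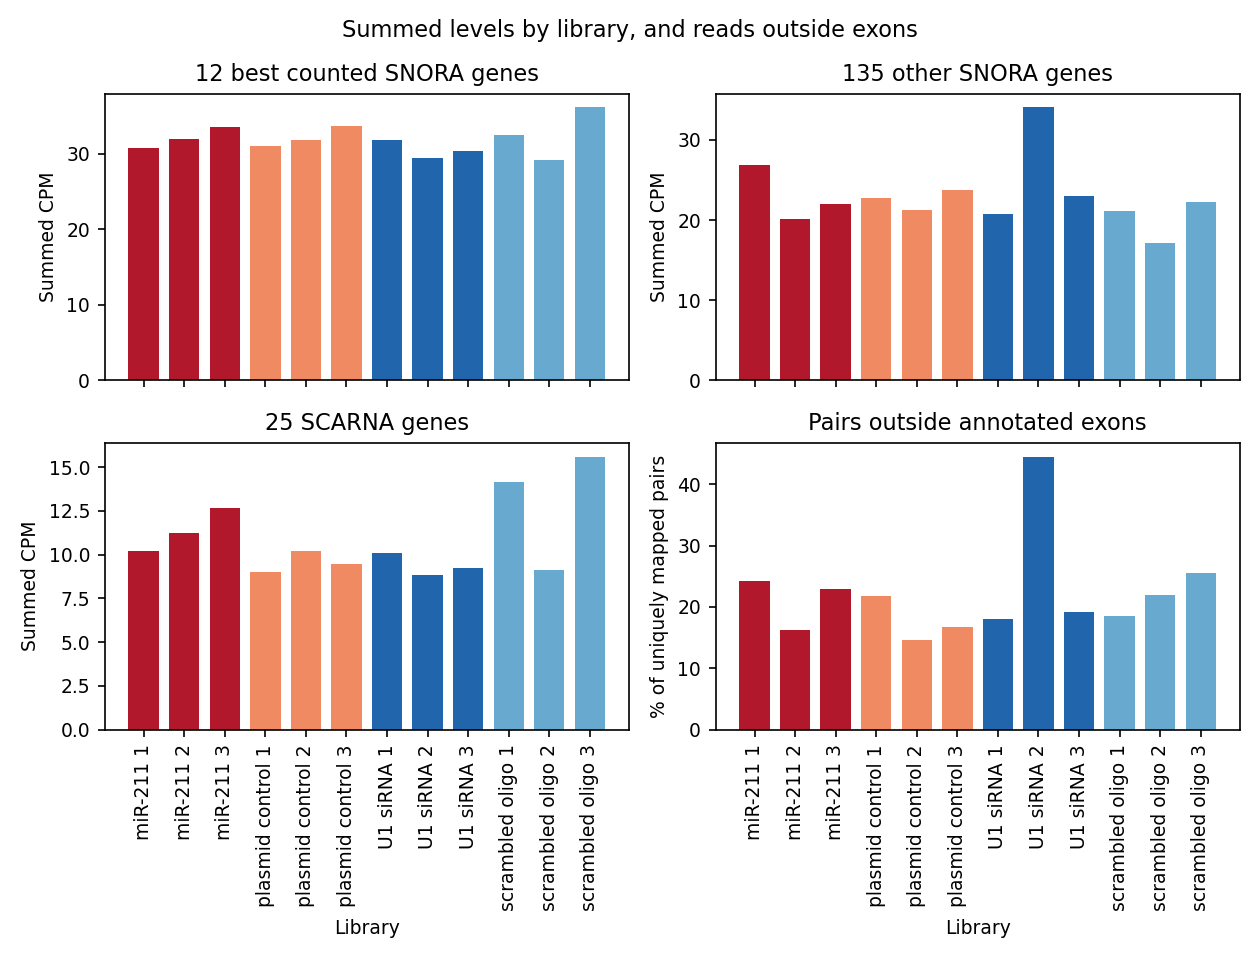
Bars give, for each of the 12 libraries, the summed CPM of the 12 best counted SNORA genes, of the 135 other SNORA genes and of the 25 SCARNA genes, and the percentage of uniquely mapped pairs outside annotated exons, coloured by group. U1 siRNA library 2 is highest in the panel of the 135 other SNORA genes (34.1 CPM) and in that of reads outside exons (44.5%).

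The miR-211 comparison asks whether the microRNA plasmid alters these RNAs against the control plasmid. No H/ACA or Cajal body gene passed the test. Summed SNORA levels were 55.1 ± 2.85 CPM with miR-211 and 54.8 ± 2.34 CPM with the control plasmid (SD, n = 3 each), a log2 ratio of 0.01 that is smaller than the spread between replicates (0.07 on the log2 scale). Summed SCARNA levels were 11.4 ± 1.24 and 9.57 ± 0.61 CPM. Their log2 ratio of 0.25 exceeds the replicate SD of 0.13, but the libraries overlapped, with 10.2 to 12.7 CPM against 8.99 to 10.2 CPM. Same-numbered libraries of this comparison were taken as pairs because they deviated together in these same data. No label states this pairing, so it is inferred. By it the SCARNA sum was higher with miR-211 in 3 of 3 pairs, which for summed SNORA CPM held in 1 of 3. Without SCARNA22 the log2 ratio was 0.13.

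Of the 172 members, 14 had enough counts to be tested (12 SNORA and 2 SCARNA genes). In edgeR's quasi-likelihood test with Benjamini-Hochberg adjustment 0 of the 14 passed, and 0 had an unadjusted p under 0.05. Over all 12685 genes tested 1 passed (0.00788%), MIR211 itself, and 3.29% had an unadjusted p under 0.05. DESeq2 also called 0 members. The log2 fold changes were positive for 10 of the 14 and negative for 4, with a median of 0.22 beside 0.01 over all genes tested. Fitted without the filter on low counts, 101 members were nearly even, with 53 positive and 48 negative. Their median was 0.11 beside 0.07 over all genes in that fit, so the lean of the 14 is not that of the members at large. The standard errors of the 14 ran from 0.18 to 0.52, so that a change of a moderate size in a single member would lie within the error.

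SCARNA22 is an orphan H/ACA RNA, known as ACA11, whose host NSD2 is the gene joined to the immunoglobulin locus in a subset of myelomas. It had 11, 16 and 25 counts with miR-211 (1.81, 1.89 and 3.23 CPM) and 5, 7 and 15 with the control plasmid (0.80, 1.01 and 2.00 CPM). Library 3 was highest in both groups, and the groups overlapped because control library 3 exceeded miR-211 libraries 1 and 2. The log2 fold change was 0.86 with a standard error of 0.41 (edgeR adjusted p = 0.996), and NSD2 differed by 0.10. It ran from 0.54 without miR-211 library 3 to 1.36 without control library 3. SCARNA22 was higher with miR-211 in 3 of 3 inferred pairs. With these pairs as a replicate block the edgeR unadjusted p was 0.019 (adjusted p = 0.645), which rests on that inference. In that fit 7.43% of all genes tested had an unadjusted p under 0.05. The ratio of pooled CPM was 1.79 with an exact 95% interval of 1.10 to 2.96, which covers counting error only.

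SNORA71D had 28, 27 and 27 counts with miR-211 (4.61, 3.19 and 3.49 CPM) and 15, 16 and 23 with the control plasmid (2.41, 2.30 and 3.07 CPM). It was the only member of the 14 whose groups did not overlap and were higher with miR-211, where 3.29% of all genes tested showed this. Non-overlap in the lower direction was found for 0 of the 14, beside 6.42% of all genes. The log2 fold change was 0.53 with a standard error of 0.27 (edgeR adjusted p = 0.996). Its relatives in the same host did not share one direction: the ratio of pooled CPM was 1.31 for SNORA71B, 1.18 for SNORA71C and 0.668 for SNORA71A, and each exact 95% interval included 1. SNHG17 stood at 103.4 ± 16.8 CPM with miR-211 and 101.0 ± 13.6 CPM with the control plasmid.

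SNORA66 had the lowest log2 fold change of the 14 members tested. There were 7, 7 and 15 counts with miR-211 (1.15, 0.828 and 1.94 CPM) and 16, 11 and 22 with the control plasmid (2.57, 1.58 and 2.94 CPM). The groups overlapped, as miR-211 library 3 exceeded control library 2. The log2 fold change was -0.82 with a standard error of 0.40 (edgeR adjusted p = 0.996), and the ratio of pooled CPM was 0.549 (exact 95% interval 0.335 to 0.887). The fold change ran from -1.24 without miR-211 library 3 to -0.56 without miR-211 library 2. SNORA66 was lower with miR-211 in 3 of 3 inferred pairs. With the block of inferred pairs the edgeR unadjusted p was 0.029 (adjusted p = 0.645). As given above, 7.43% of all genes tested were under 0.05 in that fit. The other members named by the same rule were SNORA74D at 0.30, SNORA12 at -0.23 and SNORA58 at -0.16 on the log2 scale, with standard errors of 0.26, 0.18 and 0.23 and the same adjusted p of 0.996.

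The U1 siRNA comparison asks the same of interference with U1 small nuclear RNA, the splicing RNA that marks the start of the introns in which these genes lie. Again no member passed the test. Summed SNORA levels were 56.5 ± 6.11 CPM with U1 siRNA and 52.7 ± 6.14 CPM with scrambled oligo (SD, n = 3 each), a log2 ratio of 0.10 within the replicate SD of 0.16. Without U1 siRNA library 2 the mean of the first group was 53.0 ± 0.46 CPM (n = 2). Summed SCARNA levels were 9.39 ± 0.63 and 13.0 ± 3.39 CPM, or 9.66 ± 0.61 without library 2. The log2 ratio of -0.47 is larger than the replicate SD of 0.30, and the scrambled oligo libraries spread widely (14.2, 9.15 and 15.6 CPM), with the U1 siRNA libraries at 8.86 to 10.1 CPM. Without SCARNA22 it was -0.22.

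Of the 172 members, 9 were tested (7 SNORA and 2 SCARNA genes), and 0 passed edgeR's adjusted threshold. Over all 12413 genes tested 0 passed as well (0.0%), with 196 at an unadjusted p under 0.05 (1.58%). DESeq2, run on all 46789 genes with a count, called 0 and had 73 at an unadjusted p under 0.05 (0.156%). Of the 9 members 2 had an edgeR unadjusted p under 0.05, SCARNA22 and SNORA11F, and both were lower with U1 siRNA. The 9 log2 fold changes were positive for 5 and negative for 4, with a median of 0.02 beside 0.02 over all genes tested.

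SCARNA22 had 15, 8 and 10 counts with U1 siRNA (2.36, 1.77 and 1.74 CPM) and 33, 17 and 52 with scrambled oligo (4.50, 2.88 and 5.60 CPM). All 3 U1 siRNA libraries lay below all 3 scrambled oligo libraries. The log2 fold change was -1.15 with a standard error of 0.36 (edgeR unadjusted p = 0.0084, adjusted p = 1.00). The ratio of pooled CPM was 0.439 (exact 95% interval 0.287 to 0.656), and 0.457 (0.283 to 0.713) without U1 siRNA library 2. Its host NSD2 differed by 0.05 on the log2 scale, at 40.0 ± 3.53 and 38.3 ± 1.08 CPM.

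SNORA11F had 16, 5 and 14 counts with U1 siRNA (2.52, 1.11 and 2.44 CPM) and 32, 19 and 38 with scrambled oligo (4.36, 3.22 and 4.09 CPM). Its groups did not overlap either, and U1 siRNA library 2 was the lowest of the 12 libraries. The log2 fold change was -0.91 with a standard error of 0.38 (edgeR unadjusted p = 0.032, adjusted p = 1.00). The ratio of pooled CPM was 0.534 (exact 95% interval 0.350 to 0.798), and 0.629 (0.401 to 0.960) without library 2. SNORA11E, its closest relative in sequence, lies inside exons of MAGED4B and had 0 counts.

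Groups that did not overlap and were lower with U1 siRNA were thus found for 2 of 9 members, beside 2.92% of all genes tested, and for 0 of 9 in the higher direction, beside 3.54%. Without U1 siRNA library 2 it was the same pair among 11 members tested, beside 11.3% of 12664 genes, and 0 of 11 were higher, beside 6.60%. SNORA11F was higher in the scrambled oligo libraries than in any of the other 9, plasmid libraries included (at most 2.85 CPM). SCARNA22 reached 3.23 CPM in miR-211 library 3, above scrambled oligo library 2. Adjusted over all genes neither difference passed. The filter on low counts left out SNORA14B, SNORA80D, SNORA79B, SNORA74B and SNORA11, whose groups did not overlap and were higher with U1 siRNA. They had 87, 63, 52, 51 and 19 counts in all. The filter also left out SCARNA3 (28 counts), whose groups did not overlap and were lower. The lower direction among the 9 tested is thus not that of the members at large.

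The other members named for U1 siRNA had log2 fold changes smaller than their standard errors. SNORA71D was at 0.30 on the log2 scale (standard error 0.39), with 14, 10 and 16 counts against 8, 14 and 22, and at 0.02 without scrambled oligo library 1 and 0.49 without scrambled oligo library 3. SNORA74D was at 0.15 (0.33), SCARNA23 at 0.07 (0.41) and SNORA12 at -0.11 (0.22), each with an edgeR adjusted p of 1.00. For SNORA12 the libraries read 9.93, 7.31 and 6.27 CPM with U1 siRNA and 7.50, 7.96 and 9.79 CPM with scrambled oligo, and the groups overlapped throughout. SNORA58 was the most even, at 4.59 ± 0.15 and 4.48 ± 0.32 CPM, a ratio of pooled CPM of 1.01 with an interval of 0.741 to 1.37.

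**Figure D4:**
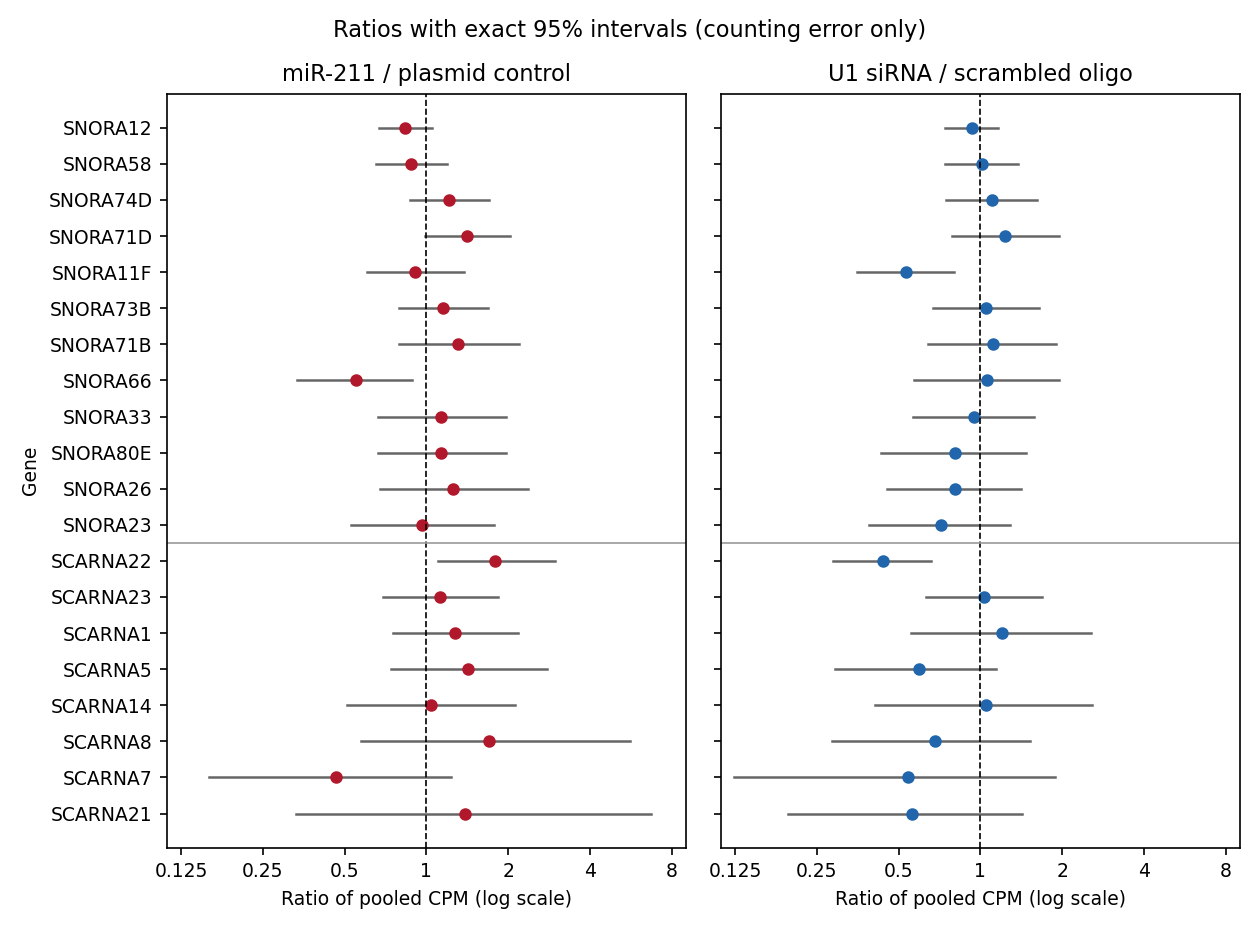
Points give the ratio of pooled CPM in each comparison for the 20 best counted members on a log axis, and lines the exact 95% interval, which covers counting error only. The interval leaves out 1 for SCARNA22 and SNORA66 on the left and for SNORA11F and SCARNA22 on the right. Within each family it widens downward as counts fall.

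Among these 20 best counted members the interval left out 1 for 2 genes in each comparison (2 of 20), with no adjustment for the number of genes. Over the 10957 genes with totals in the range of these members (34 to 650 counts) it left out 1 for 7.03% with miR-211 and 13.3% with U1 siRNA, so the members' share is near that of genes at large. Ratios were above 1 for 14 of 20 with miR-211 (range 0.464 to 1.79) and for 9 of 20 with U1 siRNA (range 0.439 to 1.23). The least counted of them show what this depth allows: SCARNA7 had a ratio of 0.543 with U1 siRNA and an interval of 0.124 to 1.88, and SCARNA21 a ratio of 1.39 with miR-211 and an interval of 0.330 to 6.71.

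An interaction fitted to all 12 libraries tested whether the 2 treatments differed in effect. Of 13520 genes 1 passed (0.00740%), MIR211, and 1.73% had an unadjusted p under 0.05. Of 13 members tested 0 passed. SCARNA22, named in both comparisons, had an interaction of 2.00 on the log2 scale with a standard error of 0.56 (edgeR unadjusted p = 0.0025, adjusted p = 0.999) and was the only member with an unadjusted p under 0.05. It was named for its values in the same libraries, so this p-value is no separate support.

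The proteins that work with these RNAs were well counted, and 0 of 23 passed in either comparison. They comprise 8 core and assembly factors, 9 proteins of the Cajal body and RNA export, and 6 of 3 prime end processing. DKC1, the pseudouridine synthase, stood at 748.2 ± 41.7 CPM with miR-211, 763.0 ± 28.9 with control plasmid, 720.9 ± 26.4 with U1 siRNA and 712.2 ± 31.1 with scrambled oligo. Averaged over the 12 libraries its partners NOP10, NHP2 and GAR1 stood at 283.0, 289.6 and 42.6 CPM, the Cajal body scaffold COIL at 77.3 and WRAP53, which carries scaRNAs to that body, at 113.4 CPM. With miR-211 8 of the 23 log2 fold changes were positive and 15 negative (median -0.01, beside 0.01 over all genes tested), and with U1 siRNA 10 and 13 (median -0.01, beside 0.02). The only one with an unadjusted p under 0.05 was NAF1, an assembly factor of H/ACA particles that is replaced by GAR1. It stood at 5.32 ± 0.69 CPM with U1 siRNA and 8.01 ± 0.74 CPM with scrambled oligo, a log2 fold change of -0.60 with a standard error of 0.22 (edgeR unadjusted p = 0.017, adjusted p = 1.00).

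TERC, the telomerase RNA, is an H/ACA RNA outside the SNORA and SCARNA names. It had 0 counts in all 12 libraries, and another annotated gene on its strand, RF00024, covers 81.0% of it. Pairs in that overlap are counted for neither gene, so this 0 does not show that TERC is absent.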

How the data were processed

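RNA of 12 HEK293T libraries was sequenced as paired-end reads of 126 nt, per the labels. The authors deposited raw read counts per gene, in the layout of STAR's per-gene output, and the submitters' processing notes name STAR 2.7.2a. The notes name GRCh37 and hg19, but all 58735 gene identifiers are those of GENCODE 29, made on GRCh38. The build of the alignment is thus unsettled, and coordinates, overlaps and sequences are from GENCODE 29. RNA selection and strandedness were not given in the sources used here. Totals of the 2 strand columns had a ratio of 0.990 to 1.10, and the unstranded column was used. The 4 summary lines stayed out of library sizes. Pairs outside exons were 14.5% to 44.5% of uniquely mapped pairs, and ambiguous pairs 6.93% to 10.8%.

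CPM was a member's count per 1000000 gene counts. A host was any gene spanning the member on its strand. Tests used edgeR 4.0.16 in R 4.3.3 (TMM scaling, filterByExpr, quasi-likelihood, Benjamini-Hochberg adjusted p under 0.05). Each comparison was fitted on its 6 libraries and the interaction on all 12. The script was tested on simulated data. Alternatives were DESeq2 1.42.0, other scaling, no filter, strand columns, a replicate block and leaving out each library. Ratios of pooled CPM have exact binomial 95% intervals. They cover counting error only, and reads without molecular identifiers are not independent molecules.

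Named genes were the 12 SNORA and 8 SCARNA genes with the highest mean CPM, and in each comparison any member past the threshold or else the 3 highest and 3 lowest tested members by signed p. Members outside this rule, and NAF1, were named after their values were seen. Members and lists were chosen with earlier results of these data known. Same-numbered libraries of miR-211 and plasmid control deviated together (correlations of 0.248, 0.305 and 0.239, each above 0.1), so these numbers were taken to pair the libraries. For U1 siRNA they were 0.140, 0.091 and -0.048, and the numbers were not taken as pairs. What a number stands for is not in the labels.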

Additional observations from a re-analysis of the deposited data

Results flagged for a closer look

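Both results here are counts outside the column that was tested. SCARNA13, a Cajal body RNA gene in SNHG10, had 29 counts in the unstranded column and 365 in the strand columns together. An exon on the opposite strand covers 46.2% of it, so that pairs in the overlap are ambiguous without strand and fall to 1 gene in each strand column. Totals of the 2 strand columns were near equal (ratio 0.990 to 1.10). Their sum therefore does not tell RNA of the member from RNA of the gene opposite. SNORA72, in RPL30, had 0 counts unstranded and 95 in the strand columns together (41 and 54). Counted so, SCARNA13 stood at 4.96 ± 0.59 CPM with miR-211, 4.17 ± 1.54 CPM with control plasmid, 4.23 ± 0.48 CPM with U1 siRNA and 4.33 ± 0.75 CPM with scrambled oligo (SD, n = 3 each), and the compared groups overlapped. SNORA72 stood at 1.37 ± 0.58 CPM with miR-211, 1.21 ± 0.55 CPM with control plasmid, 0.711 ± 0.22 CPM with U1 siRNA and 1.27 ± 0.11 CPM with scrambled oligo. With 3 to 6 counts per U1 siRNA library and 7 to 13 per scrambled oligo library, the last 2 groups did not overlap. In the unstranded column 2.92% of all genes tested showed such a non-overlap in the lower direction. The difference in SNORA72 was not tested, and these counts cannot be given to SNORA72 alone. The part of the gene on the other strand in these counts was not tested. With 3 libraries a group, no outlier test within a group was run.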

How the results depend on the processing

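The count of members past the adjusted threshold was 0 in both comparisons and in the interaction under every alternative run. Over all genes, the miR-211 comparison gave 2 calls in place of 1 without the filter on low counts and with strand column 3 or strand column 4, and the U1 siRNA comparison gave 7 in place of 0 without the filter. The miR-211 log2 ratio of summed SNORA CPM was 0.0926 with strand column 3 and -0.0639 with strand column 4, and that of summed SCARNA CPM was 0.552 and 0.0484, where the unstranded values were 0.01 and 0.25. The cause was not tested.

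Of the 12 fold changes named, SNORA58 with miR-211 turned to 0.0821 with strand column 3. With U1 siRNA, SNORA74D turned to -0.23 and SNORA12 to 0.0621 with strand column 4, and leaving out 1 library moved SNORA12 from -0.34 to 0.0218 and SCARNA23 from -0.24 to 0.22. The signs of SCARNA22, SNORA11F, SNORA71D and SNORA66 held in each alternative in which they were tested. So did those of SNORA74D (0.30) and SNORA12 (-0.23) with miR-211, so a sign that holds was not particular to the larger fold changes. SCARNA22 with U1 siRNA ran from -1.36 to -0.92 and SNORA11F from -1.11 to -0.64, with adjusted p of at least 0.979.

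With the replicate block the miR-211 comparison still gave 1 call and 0 members. At an unadjusted p under 0.05 were 943 genes (7.43%, beside 3.29% without the block) and 2 members (SCARNA22 and SNORA66, edgeR adjusted p = 0.645). In the U1 siRNA comparison the block gave 0 calls, and same-numbered libraries did not deviate together for every pair. The block changed no call. The number of members with a count was 105 without U1 siRNA library 2 and 106 in the strand columns, alternatives chosen after seeing the data. The filter on low counts left 14 and 9 of the 172 members in the test.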
